A study of Mus musculus with 6 samples.

Results

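The 9 genes described here encode 6 STAT transcription factors, Stat2, Stat3, Stat4, Stat5a, Stat5b and Stat6, and 3 Janus kinases, Jak1, Jak2 and Jak3. They were taken by name from the authors' deposited table of 37867 gene models. Each matched 1 model, and all 9 were among the 13834 models that the authors tested. RNA was sequenced from CD4+CD8+ double-positive thymocytes sorted from C57bl6 mice, with 3 samples from mice lacking miR-181a-1 and miR-181b-1 (the knockout) and 3 from wild type mice. The labels give no treatment, age or sex, do not say how the deletion was made, and do not say whether the samples of a genotype came from separate animals. The table holds 1 pooled value per genotype in FPKM, a read level scaled for transcript length and library size, so no value of a single sample, no SD and no depth can be given. Errors are standard errors of the log2 ratio, knockout over wild type, as implied by the deposited test statistic. A gene is called when its deposited q-value is under 0.05. Where 2 levels are joined by "against", the knockout comes first.

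The labelled cell type was borne out by its markers. The 9 double-positive thymocyte genes, among them Cd4, Cd8a and Rag1, stood at 9.59 to 1241 FPKM in the knockout and 26.1 to 1683 FPKM in the wild type. Summed markers of B cells (3 genes), dendritic cells (3) and NK cells (2) reached at most 0.694 FPKM in either genotype. The 3 myeloid markers summed to 2.71 FPKM in knockout and 4.80 FPKM in wild type cells.

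Janus kinases sit on the cytoplasmic tails of cytokine receptors, which have no kinase activity of their own. When a cytokine brings the receptor chains together, the kinases phosphorylate each other, the receptor and the STAT proteins docked on it. Phosphorylated STATs pair, enter the nucleus and bind DNA, most of them at the palindrome TTCNNNGAA, called a GAS element. In the thymus this pathway carries interleukin-7 signals before and after the double-positive stage, and double-positive cells themselves are known for low interleukin-7 receptor and weak responses to cytokines.

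The sequences of the deleted microRNAs are given first, because a microRNA can lower transcripts that carry a match to its seed in their 3′ UTR. The mature forms below come from RefSeq (GRCm38.p6), with the seed, bases 2 to 8, in capitals. The 2 share this seed. The first mature form lies at chr1:137966468-137966490 and the second at chr1:137966650-137966673, both on the plus strand.
mmu-miR-181a-5p: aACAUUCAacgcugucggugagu
mmu-miR-181b-5p: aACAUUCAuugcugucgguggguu
In 1 GENCODE reference transcript per gene, none of the 9 genes had an 8-base match (TGAATGTA) or a 7-base match (TGAATGT or GAATGTA) in its 3′ UTR. Such a match was present in 21.8% of 9955 reference transcripts of tested models. The 3′ UTRs searched ran from 248 bases in Stat4 and 419 in Jak3 to 2365 in Stat5b. The shorter 6-base match GAATGT was found in Stat2 and Stat6, 1 site each, against 33.7% of all transcripts. Both sites are shown with 8 bases on either side, the match in capitals, as the only matches to these motifs in the 3′ UTRs searched. Other 6-base matches to the seed were not searched.
Stat2: tgggaaacGAATGTgaggacct
Stat6: taatgctcGAATGTgatacaac
The Stat2 site lies at chr10:128292425-128292446 and the Stat6 site at chr10:127660201-127660222 (GRCm38, plus strand). Neither gene was called between the genotypes. No match says only that these letters are not in the transcripts searched.

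The comparison of the genotypes asked whether the kinases and STATs were expressed differently without these microRNAs. Stat4 rose 2.22-fold in the knockout, while Stat5a and Stat5b fell to 47.4% and 52.6% of their wild type levels. The other 6 genes were not called. Thus 3 of 9 genes were called in the authors' deposited table, against 17.1% of all tested models. The 1 called higher stands beside a background of 1.79% and the 2 called lower beside 15.3%. The median log2 ratio of the 9 was -0.15, close to the -0.17 of all tested models. With all ratios centred on that median, these 3 genes were again called, Stat4 at 1.32, Stat5a at -0.91 and Stat5b at -0.76, beside 14.4% of all models, 3.6% higher and 10.8% lower.

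**Figure D1:**
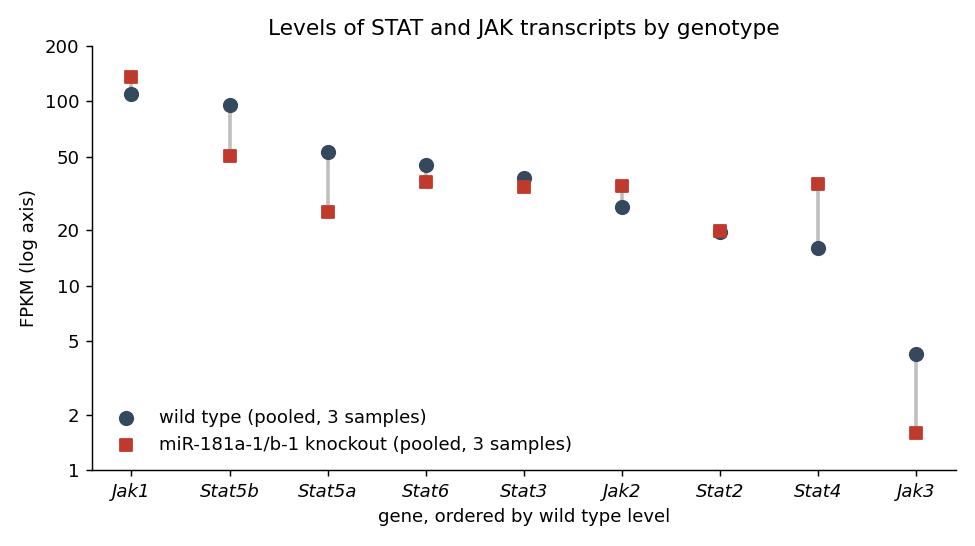
FPKM of the 9 genes on a log axis, ordered by wild type level, with circles for the wild type and squares for the knockout, each 1 value pooled by the authors from 3 samples and shown without error. Stat5b and Stat5a are lower and Stat4 is higher in the knockout, and Jak3 is the lowest in both genotypes.

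Among the kinases, Jak1 was the most abundant. Jak1, which serves the interferon receptors, the common gamma chain receptors and the gp130 receptors, stood at 135 FPKM in knockout and 110 FPKM in wild type cells. Its level was the highest of the 9 in both genotypes and lay above that of 96.5% of tested models in the wild type. The estimated log2 ratio was 0.29 and its implied standard error 0.21 (95% interval -0.13 to 0.70, authors' deposited table q = 0.416). Jak2, the kinase of the interferon-gamma, interleukin-12 and erythropoietin receptors, stood at 34.8 against 26.6 FPKM. The log2 ratio of Jak2 was 0.39 with an implied standard error of 0.24 (95% interval -0.08 to 0.85, authors' deposited table q = 0.298). Their models lie on chromosome 4 from 100741642 to 100937887 for Jak1 and on chromosome 19 from 29326317 to 29387570 for Jak2 (mm9). For neither kinase did the difference pass the threshold, and the intervals leave room for a rise of up to 1.63-fold in Jak1 and 1.80-fold in Jak2.

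Jak3, which binds the common gamma chain, was far less abundant. It stood at 1.60 FPKM in knockout and 4.26 FPKM in wild type cells, so that Jak1 exceeded it 25.9-fold in the wild type. Its log2 ratio of -1.42 was the lowest of the 9, but its implied standard error of 0.61 was also the largest. The interval of -2.61 to -0.22 lay below 0, while the q of 0.0957 in the authors' deposited table missed the threshold after adjustment over all tested models. The model, on chromosome 8 from 74200432 to 74214474 (mm9), is listed under Insl3 and Jak3 together. Insl3 encodes a peptide hormone, and reads of the 2 genes cannot be told apart in this value. Taken as a sum, the 3 kinases stood at 171 FPKM in knockout and 141 FPKM in wild type cells, with 78.8% and 78.1% of the sum from Jak1.

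Stat4, which carries interleukin-12 signals toward interferon-gamma production in T and NK cells, was the STAT gene that rose. It stood at 35.8 FPKM in knockout and 16.1 FPKM in wild type cells. The estimated log2 ratio was 1.15 and its implied standard error 0.25 (95% interval 0.66 to 1.64, authors' deposited table q = 0.000101). This placed Stat4 257th from the top among 13780 tested models with a finite ratio. It moved from the eighth level of the 9 genes in the wild type to the fourth in the knockout. Its model lies on chromosome 1 from 52065087 to 52164028 (mm9). A change in the share of expressing cells and one in RNA per cell cannot be told apart in such sorted bulk samples.

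A marker of the preceding stage was also called higher in the knockout. Of 3 double-negative markers, Il2ra was called higher at 29.4 against 2.89 FPKM, while Kit stood at 0.370 against 0.672 FPKM and Cd44 at 3.81 against 2.96 FPKM, both not called. The 3 summed to 33.6 against 6.52 FPKM, in the knockout mostly from Il2ra. Ptcra, counted here among the double-positive genes, went the other way and was called lower at 9.59 against 26.1 FPKM. Of genes of mature thymocytes, Ccr7 (3.20 against 3.04 FPKM), S1pr1 (0.304 against 0.310 FPKM) and Klf2 (0.948 against 0.924 FPKM) were not called. The part of such cells in the level of Stat4 was not tested. Of the NK cell markers, Ncr1 stood at 0.0341 against a listed 0 FPKM and Klrb1c at 0.00375 against 0.0673 FPKM. Among markers of cells outside the T lineage, the myeloid gene Itgam (1.02 against 2.11 FPKM) and the epithelial gene Epcam (0.932 against 2.30 FPKM) were called lower, while Foxn1, Krt5 and Krt8 of the thymic epithelium were at most at 0.0346 FPKM.

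Stat5a and Stat5b, close paralogs that carry signals of the common gamma chain receptors, were both lower in the knockout. Stat5b stood at 50.3 FPKM in knockout and 95.7 FPKM in wild type cells. Stat5b had a log2 ratio of -0.93 with an implied standard error of 0.23 (95% interval -1.38 to -0.47, authors' deposited table q = 0.00102). Stat5a stood at 25.2 against 53.1 FPKM. Stat5a had a log2 ratio of -1.08 with an implied standard error of 0.24 (95% interval -1.55 to -0.60, authors' deposited table q = 0.00022). The intervals of the 2 paralogs overlapped over most of their length, and Stat5b exceeded Stat5a 2.00-fold in the knockout and 1.80-fold in the wild type. Their sequences are alike, and how the authors divided reads that match both was not stated in the labels, so the split between them is uncertain.

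The 2 genes are neighbours, and another STAT gene adjoins them. On chromosome 11 (mm9) the model of Stat5b, also listed as AK088966, ran from 100642044 to 100711867, and that of Stat5a, also listed as Stat5A, from 100720716 to 100746483, a gap of 8849 bases. Stat3 followed from 100748123 to 100800825, 1640 bases further. Stat3, the factor of interleukin-6, interleukin-21 and interleukin-10 signals, stood at 34.5 against 38.3 FPKM. Stat3 had a log2 ratio of -0.15 with an implied standard error of 0.24 (95% interval -0.62 to 0.31, authors' deposited table q = 0.777). Called and uncalled STAT genes thus lay side by side in this cluster, although the difference between their ratios was not tested.

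Stat6 and Stat2, both on chromosome 10, were not called. Stat6, the factor of interleukin-4 and interleukin-13, stood at 36.7 against 44.97 FPKM. The estimated log2 ratio was -0.29 and its implied standard error 0.25 (95% interval -0.78 to 0.19, authors' deposited table q = 0.5002). Stat2, a subunit of the complex that answers type I interferon, stood at 19.9 against 19.5 FPKM. The estimated log2 ratio was 0.03 and its implied standard error 0.24 (95% interval -0.45 to 0.51, authors' deposited table q = 0.981). Their models ran from 127080041 to 127103734 for Stat6 and from 127707631 to 127729905 for Stat2 (mm9).

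The make-up of the STAT transcripts differed between the genotypes. Summed over the 6 genes, STAT transcripts stood at 202 FPKM in knockout and 268 FPKM in wild type cells. Stat5a and Stat5b gave 19.8% and 35.7% of that sum in the wild type and 12.5% and 24.9% in the knockout. Stat4 gave 6.03% in the wild type and 17.7% in the knockout. In level per length, Stat5a exceeded Stat4 3.29-fold in the wild type, whereas in the knockout Stat4 exceeded Stat5a 1.42-fold. In the knockout Stat6, Stat4, Jak2 and Stat3 lay between 34.5 and 36.7 FPKM. With no spread over samples, neighbours in the order of levels could not be separated.

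**Figure D2:**
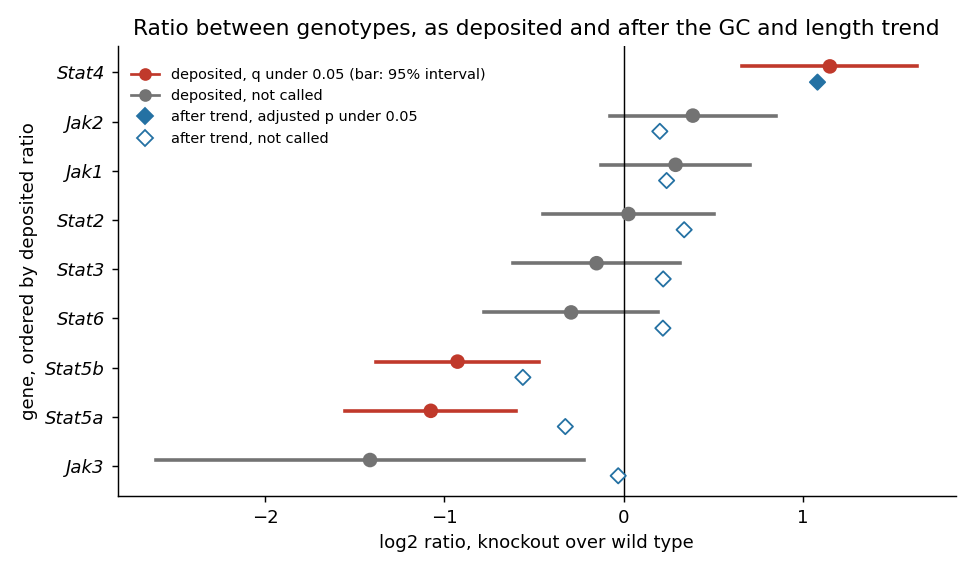
Log2 ratio of knockout over wild type for the 9 genes, with circles for the deposited ratio, bars for its 95% interval and diamonds for the ratio once the trend with GC content and length was removed. Stat4 is called on both scales, Stat5a and Stat5b on the first only, and the diamonds of Stat3 and Stat6 lie on the other side of 0 from their circles.

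Among the 9 genes, the ratio fell as the GC content of the transcript rose. GC content of the reference transcripts ran from 44.3% in Jak2 and 45.4% in Stat4 through 47.6% in Jak1, 51.9% in Stat2, 52.6% in Stat3, 52.7% in Stat5b, 53.7% in Stat6 and 55.8% in Stat5a to 61.1% in Jak3. Across the 9 genes Spearman's rho of the ratio with GC content was -0.967, a description of genes that share the same libraries and not a test. Over 9003 coding genes it was -0.764. These were tested, had a mean of at least 1 FPKM and had a reference transcript within 1.2 times their model's span. For each, 1 model was kept. A robust regression of the ratio on splines of GC content and transcript length over those genes gave each gene a fitted trend, and each remainder was tested against its implied standard error, with Benjamini-Hochberg adjustment. On that scale 1.81% of the genes passed at an adjusted p under 0.05, 0.822% upward and 0.989% downward.

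Stat4 stayed called when the trend was removed, and Stat5a and Stat5b did not keep their calls. Stat4 went from a log2 ratio of 1.15 to 1.08, with an adjusted p of 0.0028 over all genes fitted. Stat5b went from -0.93 to -0.56 (at an adjusted p of 0.27) and Stat5a from -1.08 to -0.33 (at an adjusted p of 0.817). Jak3 went from -1.42 to -0.03 and Jak1 from 0.29 to 0.24, and Jak2 went from 0.39 to 0.20. Stat2 stood at 0.34 on this scale, and Stat3 and Stat6, both below 0 as deposited, stood at 0.22 each. Of the 9 genes, 1 was then called, and their median was 0.22 against 0.00 for all genes fitted. Across the 9 genes Spearman's rho of the remainder with GC content was still -0.6, again a description and not a test. A trend of technical origin and a trend due to the genotype cannot be told apart here.

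Ratios were also set beside those of genes of like GC content. Stat2, Stat3, Stat5b and Stat6 fell in the same one of 10 groups by GC content, from 51.9% to 53.7%, in which the median log2 ratio was -0.48 and 20.3% of 900 genes were called lower. In this group Stat5b, at -0.93, lay below the median, and Stat2, Stat3 and Stat6, at 0.03, -0.15 and -0.29, lay above it. The 95% intervals of Stat3, Stat5b and Stat6 included the group median, none of the 4 genes was called after removal of the trend, and the differences among their ratios were not tested. Stat4 lay in a group from 44.3% to 46.3%, whose median was 0.08 and in which 2.44% were called higher. The groups of Stat5a and Jak3 had medians of -0.92 and -1.33, with 51.3% and 71.7% of their genes called lower.

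**Figure D3:**
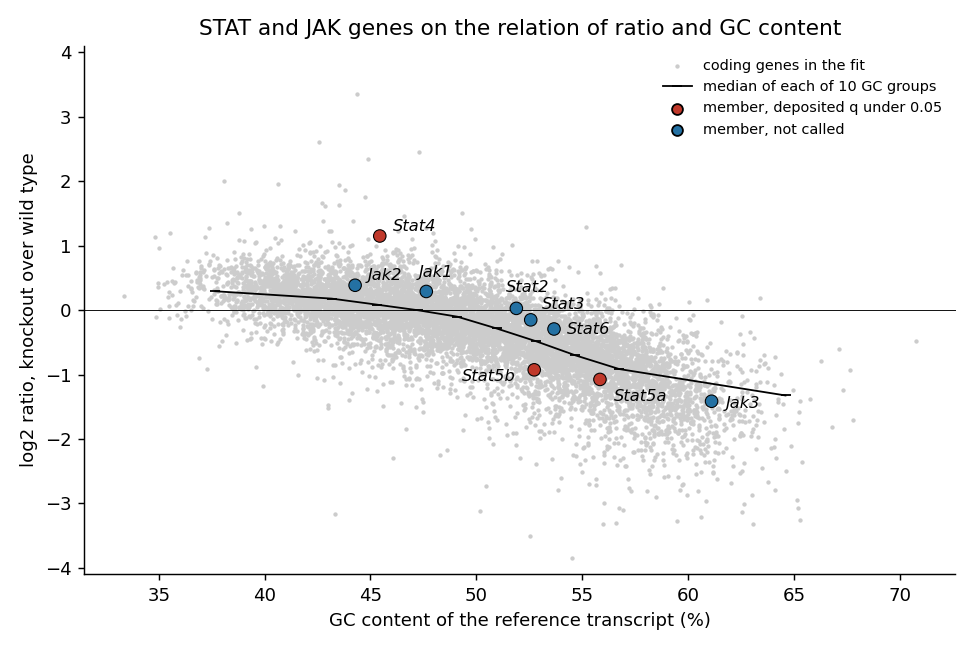
Log2 ratio of knockout over wild type against GC content of the reference transcript, with grey points for coding genes (6 beyond a log2 ratio of 4 in size not drawn), a line for the median in each of 10 GC groups and large points for the 9 genes. The ratio declines with GC content, Stat4 lies above the line at 1.15 and Stat5b lies below it at -0.93.

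The receptors upstream of the kinases were called in both directions. Of 21 tested receptor chains, 3 rose, 3 fell and 15 were not called, with a median log2 ratio of -0.04. Of all tested models 1.79% were called higher and 15.3% lower, so the 3 of 21 that fell were near the background share. Il2ra, the interleukin-2 receptor alpha chain, rose, as did Il15ra, the interleukin-15 receptor alpha chain, at 5.93 against 2.08 FPKM (authors' deposited table, q = 0.0424). The chains of the interleukin-12 receptor, which signals through Stat4, moved apart. Il12rb2 rose to 4.36 from 2.29 FPKM (authors' deposited table, q = 0.0214), and Il12rb1 fell to 6.02 from 11.8 FPKM (authors' deposited table, q = 0.00705). Il10ra, a receptor chain that works through Jak1 and Stat3, fell to 1.82 from 6.66 FPKM (authors' deposited table, q = 1.24e-05). Il21r, which uses the common gamma chain, fell to 37.7 from 65.4 FPKM (authors' deposited table, q = 0.0146). With ratios centred on the median of all models, Il21r was no longer called (at an adjusted p of 0.0761) and 2 receptor chains were called lower. Il12rb1, Il12rb2, Il15ra and Il21r also lost their calls under Benjamini-Yekutieli adjustment.

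Shared subunits of these receptors were not called. Il2rg, the common gamma chain, was at 276 against 283 FPKM (authors' deposited table, q = 0.968), and Il6st, which encodes gp130, was at 62.0 against 55.6 FPKM (authors' deposited table, q = 0.742). Il7r was at 1.03 against 0.803 FPKM (authors' deposited table, q = 0.755). Il4ra, which uses Stat6, was at 28.7 against 49.3 FPKM and missed the threshold (authors' deposited table, q = 0.0575). After removal of the trend, Il2ra (3.19) and Il10ra (-1.42) were the receptor chains still called, of 20 with a value. Il12rb2 was then at 0.98 and Il15ra at 1.75, with adjusted p values of 0.073 and 0.0746, and Il12rb1 turned to 0.16.

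Among inhibitors of the pathway, 6 of the 17 tested fell, none rose and 11 were not called, with a median log2 ratio of -0.24. That is 35.3% called lower, beside 15.3% of all tested models called lower and 1.79% called higher. Socs1, which binds and blocks the kinases, fell to 9.38 from 24.4 FPKM (authors' deposited table, q = 0.000309). Socs3, which does so on gp130 receptors, fell to 4.01 from 8.77 FPKM (authors' deposited table, q = 0.00754), a call lost under Benjamini-Yekutieli adjustment (at an adjusted p of 0.0763). Pias4, a SUMO ligase that restrains STAT activity, fell to 4.55 from 12.5 FPKM (authors' deposited table, q = 0.00141). The other called members, chosen for mention after their values were seen to complete the 6, were the phosphatases Ptpn6 (58.2 against 97.7 FPKM) and Ptpn1 (13.7 against 23.2 FPKM) and the adaptor Sh2b3 (3.53 against 6.93 FPKM). The 3 genes named first have GC contents of 58.7% to 60.8%, and after removal of the trend none of the 17 was called, with a median of 0.01. With ratios centred on the median of all models, 3 of the 17 were called lower, beside 10.8% of all models.

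Of 14 tested partners and transport factors of the STATs, 1 was called, beside 17.1% of all tested models. Kpna1, an importin that carries STAT cargo into the nucleus, rose to 21.2 from 13.3 FPKM (authors' deposited table, q = 0.0391), a call lost under Benjamini-Yekutieli adjustment (at an adjusted p of 0.395). Irf9, listed as Isgf3g, joins Stat2 in the interferon-induced complex and stood at 10.3 against 9.76 FPKM (authors' deposited table, q = 0.934). Over the list the median log2 ratio was 0.17. After removal of the trend Kpna1 was at 0.40 (at an adjusted p of 0.677) and no member was called.

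Genes known to be induced by cytokine-activated STATs were mostly lower where they were called. Of 15 tested, 6 fell, 1 rose and 8 were not called, and the median log2 ratio was -0.58. Over all tested models 15.3% were called lower and 1.79% higher, so lower calls outnumbered higher ones there as well. Ccnd3, a D-type cyclin, fell to 118 from 355 FPKM (authors' deposited table, q = 1.26e-08), and Myc fell to 4.91 from 13.1 FPKM (authors' deposited table, q = 0.00158). Socs1 and Socs3, both called lower, belong to this list as well as to that of the inhibitors, so the 2 lists are not independent. Mcl1, a survival factor of the Bcl2 family, rose to 168 from 110 FPKM (authors' deposited table, q = 0.0254), a call lost under Benjamini-Yekutieli adjustment (at an adjusted p of 0.257). After removal of the trend the median of 13 members with a value was -0.08 and none was called lower. Ccnd3 was then at -0.43 (at an adjusted p of 0.617), and Mcl1 at 0.69 (at an adjusted p of 0.0586). With the longest transcript of each gene behind the trend, Mcl1 was called at 0.72 (at an adjusted p of 0.0426). That alternative was chosen after seeing the data. On the main trend, with 1 reference transcript per gene, the kinase gene Pim2 was called at 1.196 (at an adjusted p of 0.0185). Pim2 was named here after its value was seen. As deposited it stood at 3.26 against 4.30 FPKM with a log2 ratio of -0.40 and was not called.

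GAS elements near the start sites of these genes are shown for the feedback inhibitors, because the inhibitors are induced by the factors that bind them. TTCNNNGAA reads the same on both strands. RefSeq windows (GRCm38.p6) of 250 bases before to 50 bases after each start were searched, and 8.30% of 32851 windows held the motif. None of the 12 windows of the 9 STAT and kinase genes held it, and neither did that of Socs1. Cish, a feedback inhibitor known to be induced by Stat5, held 2, the first beginning at the start site and the second 11 bases further, and Socs3 held 1, beginning 154 bases before the start. They are printed with the motif in capitals.
Cish, first: gcccagttTTCCTGGAAagttcttg
Cish, second: ctggaaagTTCTTGGAAatctgtca
Socs3: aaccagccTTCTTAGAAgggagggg
These lie at chr9:107296651-107296675 and chr9:107296662-107296686 on the plus strand and at chr11:117969504-117969528 on the minus strand. Cish transcripts stood at 0.0269 against 0.101 FPKM and were not tested by the authors, so Cish was near 0 in both genotypes, while Stat5a and Stat5b were at 25.2 to 95.7 FPKM. A match is a description of the sequence and does not show binding.

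Of 16 tested genes induced by interferon, 1 was called lower and none higher, where 15.3% and 1.79% of all tested models were. Bst2, which tethers budding viruses, fell to 6.81 from 16.8 FPKM (authors' deposited table, q = 0.00137), and 15 were not called. Ratios were above 0 in 12 of the 16, none of them called, and the median log2 ratio was 0.50. The share above 0 over all tested models was not counted, and their median log2 ratio was -0.17. Among the 12, Mx2, Oas2, Oasl2 and Ifit3 were at most at 0.765 FPKM in either genotype. With ratios centred on the median of all models, 2 members were called higher and 1 lower, beside 3.6% and 10.8% of all models. Only 11 of the 16 (68.8%) reached the level needed for a value after removal of the trend, so that check is void for the list as a whole. Bst2 had a value on that scale, -0.19 (at an adjusted p of 0.997), and was no longer called.

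**Figure D4:**
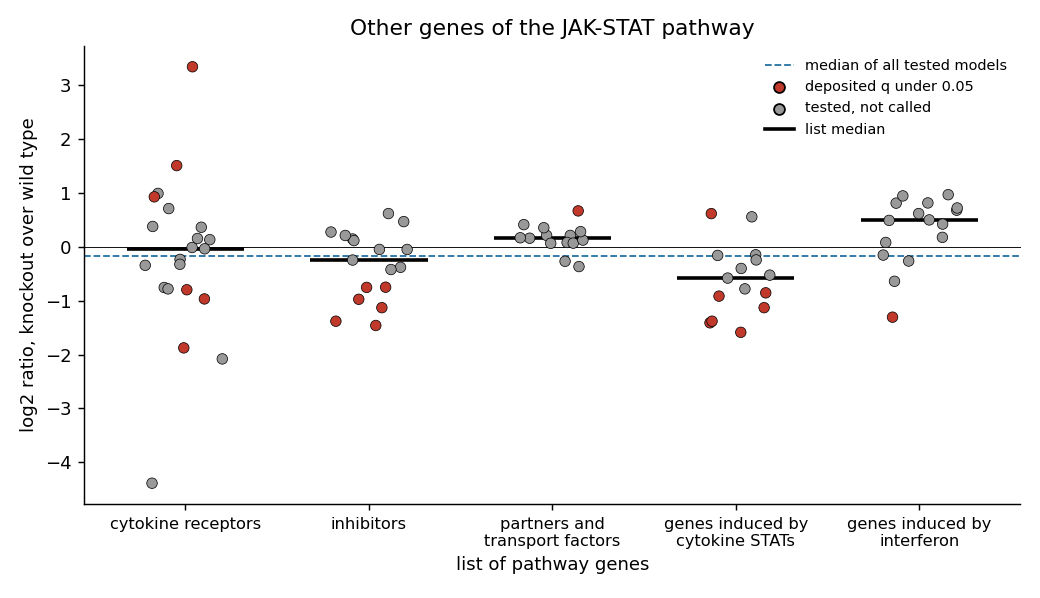
Log2 ratio of knockout over wild type for the tested genes of 5 lists of pathway genes, red where the deposited q was under 0.05, with a bar for each list's median and a dashed line for the median of all tested models (-0.17). Calls among the inhibitors lie below 0, while those among the receptors lie on both sides.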

How the data were processed

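RNA was sequenced from 3 knockout and 3 wild type samples. Reads were aligned with TopHat2 to mm9, per the submitters' processing notes. The tools for counting and testing, and the handling of shared reads, were not given in the sources used here. For each model, the authors deposited 1 FPKM value per genotype, a log2 ratio and a test statistic (each a score here, since models at 0 hold a placeholder), p-values and q-values. No counts or depths were used. The deposited q-values equal Benjamini-Hochberg values over tested models within 1.89e-06.

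The members and lists were chosen with earlier results of these data known. The named genes are the 9 members, 8 fixed genes and up to 3 called genes per direction of each of 5 lists by smallest p. The highest summed FPKM decided between models of a symbol, and older names were matched through RefSeq synonyms. GC content, length and 3′ UTR came from 1 principal transcript per gene of GENCODE M21 (GRCm38). Transcripts over 1.2 times the span of their model were left out. The trend was fitted with statsmodels 0.14.6 (Huber regression, cubic splines of 5 pieces) and tested on simulated data. No coordinate was converted between builds. One gene of the marker lists is not reported here.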

Additional observations from a re-analysis of the deposited data

How the results depend on the processing

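With the GC and length trend removed, 1 of the 9 genes was called in place of 3, and the same count was found with the longest transcript of each gene, an alternative chosen after seeing the data. The count stayed at 3 with centred ratios, with Benjamini-Yekutieli adjustment, with adjustment over models of at least 1 FPKM, at a q under 0.01, and with every tested model counted, and was 4 at a q under 0.10, where Jak3 joined. Stat3 turned to 0.0144 when centred and to 0.22 after trend removal (0.17 with the longest transcript). Stat6 turned to 0.22 (0.24), Il12rb1 to 0.16 (0.15), Socs3 to 0.042 (0.0381) and Il2rg to 0.17 (0.20, and 0.13 when centred). After trend removal the receptors had 1 called higher and 1 lower in place of 3 and 3, the inhibitors 0 lower in place of 6 (3 when centred), the partners 0 higher in place of 1, and the cytokine-induced genes 0 lower in place of 6. The interferon-induced genes had 0 lower in place of 1, since Bst2 lost its call. Only 11 of the 16 had a value, so that check is void for the list as a whole (2 were higher in place of 0 when centred). Among the other named genes, 7 lost their calls under Benjamini-Yekutieli adjustment (Il12rb1, Il12rb2, Il15ra, Il21r, Socs3, Kpna1 and Mcl1), and Il21r also when centred. Counting matches to the 6-base motif GAATGT gave 2 genes in place of 0. The cause of these changes was not tested.

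No paired analysis was possible because the table holds 1 pooled value per genotype, and leaving out single replicates was not run for the same reason. Depth is unknown, so whether the sequencing limited the calls of weakly expressed genes such as Jak3 cannot be said.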
